A study of Homo sapiens with 4 samples.

Results

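The genes described here are 37 human genes of fatty acid metabolism, taken by symbol from the 30716 rows of the deposited gene table. All 37 were found, each in a single row. The list was given by name, and no measured value enters the rule that takes the rows. The members were nevertheless chosen with earlier results of these data known. They fall into cytosolic synthesis (5 genes), desaturation (5), elongation (12), mitochondrial synthesis (2), activation to acyl-CoA (3), glycerolipid synthesis (4) and oxidation (6). Transcripts of KYSE30, a human cell line established from an esophageal squamous cell carcinoma (ESCC), were measured by RNA-seq. The compared groups were KYSE30 cells carrying a short hairpin RNA against the transcription factor YY1 (shYY1, 2 libraries) and KYSE30 cells carrying a negative-control hairpin (shNC, 2 libraries). Per the labels' protocols, cultures were kept in DMEM with serum and stable knockdown cells were selected with puromycin. The labels do not give the hairpin sequences, the number of hairpins, whether the cells were clones or pools, or whether replicates came from separate cultures. The p-values therefore measure only the spread between these libraries, which may be technical.

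Fatty acid synthesis starts from acetyl-CoA in the cytosol. ATP citrate lyase (ACLY) makes it from citrate and ACSS2 makes it from acetate, the acetyl-CoA carboxylases ACACA and ACACB turn it into malonyl-CoA, and fatty acid synthase (FASN) joins these units into palmitate. In the endoplasmic reticulum, ELOVL enzymes and their partners lengthen the chain, and SCD, SCD5 and the FADS enzymes place unsaturated bonds in it. Acyl-CoA synthetases of the ACSL family activate free fatty acids, the lipins and DGAT enzymes lead them into triacylglycerol, and the carnitine palmitoyltransferases bring them into mitochondria for beta-oxidation. Many tumors are known for high expression of the synthesis arm.

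The label of the knockdown was checked first. YY1 had 2606 and 2344 counts in shYY1 libraries, against 8147 and 7960 counts in shNC libraries (log2 fold change -1.67 ± 0.0880 (SE), edgeR quasi-likelihood adjusted p = 6.18e-05). Total counts ran from 67390336 to 72499865 per library. Mitochondrially encoded genes took 2.76% and 3.14% of counts in shYY1 libraries, against 4.76% and 3.60% in shNC libraries, and the part of this difference in the values given here was not tested. All 10 squamous epithelium markers were in the table, none was called, and they summed to 1283.5 and 1262.8 CPM (counts scaled to library total and TMM factor) in shYY1 libraries, against 1143.3 and 1164.9 CPM in shNC libraries. Because the labels' RNA extraction protocol mentions retinas, retina markers were read as well: 4 of 12 retina markers were in the table with RLBP1 at 0 in all libraries and a summed level of 0.484 and 0.878 CPM in shYY1 libraries, against 0.928 and 1.22 CPM in shNC libraries. Stromal, immune, endothelial, and adipocyte and hepatocyte marker lists summed to at most 14.9 CPM in any library, with PTPRC, CD3E and CYP3A4 at 0 in all 4 and no marker called. The adipocyte and hepatocyte sum was 7.57 and 0.132 CPM in shYY1 libraries, against 8.65 and 7.19 CPM in shNC libraries.

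Of the 37 genes, 35 had enough counts to be tested. A gene was called where the adjusted p of edgeR's quasi-likelihood test, adjusted over all 18035 tested genes, was under 0.05. By this rule 2 of the 35 rose in shYY1 cells, the phosphatidate phosphatase LPIN1 and the elongation dehydratase HACD3, and 2 fell, the desaturase SCD5 and the elongase ELOVL4. The other 31 were not called. The 4 called genes are 11.4% of the members tested, beside 9.94% of all tested genes, and the shares in each direction were 5.71% of the members, beside 5.05% of all genes called higher and 4.90% called lower. The proportion called among the fatty acid genes was therefore near that of the whole table. At an unadjusted p under 0.05 there were 8 of the 35, beside 25.1% of all tested genes. The median log2 fold change of the 35 was 0.06 and that of all tested genes -0.01. The median size of the change, in either direction, was 0.15 for the 35 and 0.26 for all tested genes on the log2 scale. These sets were not matched for expression level, so the difference is not read as a trait of the fatty acid genes.

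**Figure D1:**
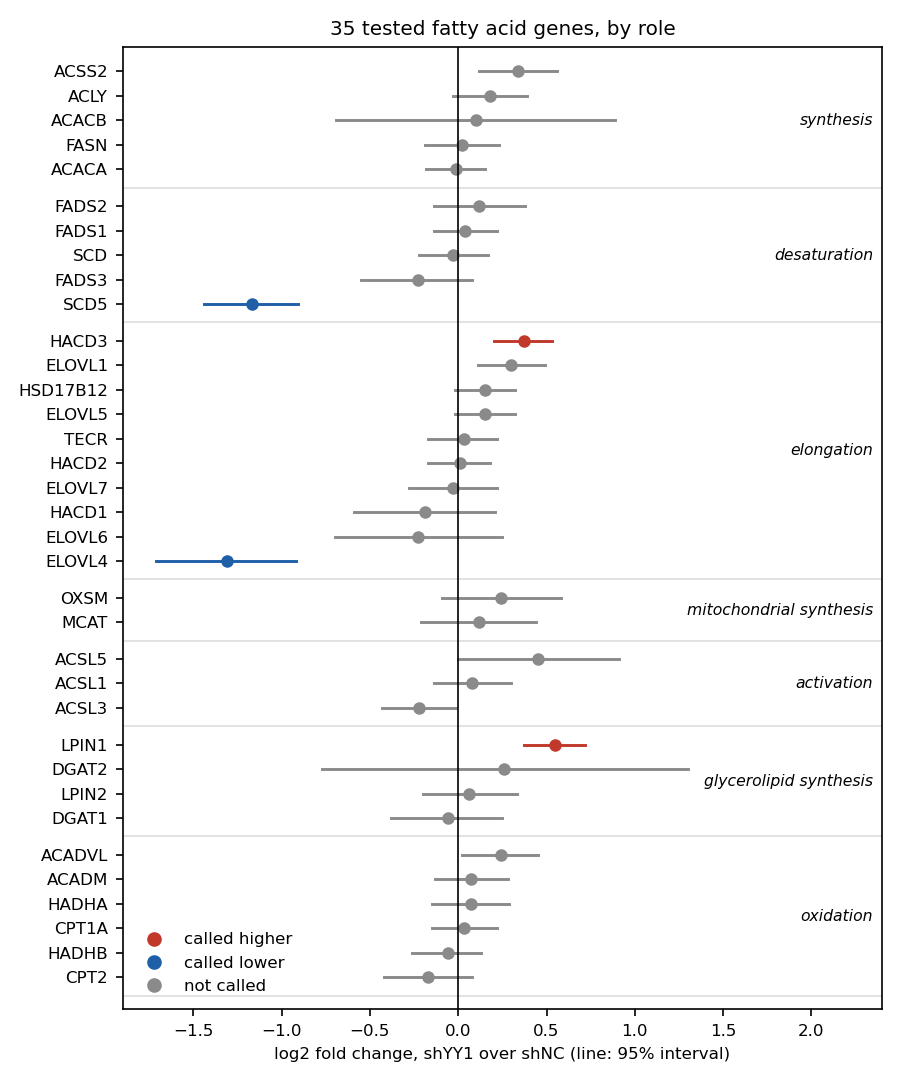
Log2 fold change of shYY1 over shNC for each of the 35 tested fatty acid genes (points), grouped by role, with the 95% interval of the edgeR fit (lines, 2 libraries a group). SCD5 at -1.17 and ELOVL4 at -1.31 lie apart on the left, and the other 33 genes lie between -0.23 and 0.55.

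SCD5, a stearoyl-CoA desaturase that makes monounsaturated fatty acids and is best known from brain, fell in shYY1 cells. It had 12.1 and 13.4 CPM in shYY1 libraries, against 27.6 and 29.9 CPM in shNC libraries. Both shYY1 libraries lay below both shNC libraries, and the gap between groups was many times the gap within either. The log2 fold change was -1.17 ± 0.118 (SE, n = 2 a group; 95% interval -1.44 to -0.91; edgeR adjusted p = 0.00094), which is 2.26-fold lower. The table places the gene at chr4:82629539-82798796 (minus strand, ENSG00000145284), with no build named, and the positions of all 37 genes fall on the chromosomes that GENCODE 29 (GRCh38) gives.

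ELOVL4, the elongase of very long chain fatty acids, known for its role in retina, skin and brain, fell as well. It had 4.26 and 3.97 CPM in shYY1 libraries, against 9.67 and 10.8 CPM in shNC libraries. The counts behind these values were 299 and 271 in shYY1 libraries, against 677 and 778 in shNC libraries. The groups did not overlap, and the log2 fold change was -1.31 ± 0.176 (95% interval -1.71 to -0.92; edgeR adjusted p = 0.0031), which is 2.49-fold lower. The table places it at chr6:79914814-79947553 (minus strand, ENSG00000118402).

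LPIN1, the lipin that turns phosphatidate into diacylglycerol and, in mouse liver, also acts as a nuclear coactivator of oxidation genes, rose. It had 131.1 and 127.7 CPM in shYY1 libraries, against 90.5 and 86.4 CPM in shNC libraries. The groups lay well apart, and the log2 fold change was 0.55 ± 0.077 (95% interval 0.37 to 0.72; edgeR adjusted p = 0.0038), which is 1.46-fold higher. LPIN1 lies at chr2:11677595-11827409 (plus strand, ENSG00000134324) in the table, and 0.97% of its exonic bases in GENCODE 29 overlap a gene on the opposite strand, AC012456.2, which had 10 counts over all libraries.

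HACD3, a dehydratase of the elongation cycle, rose by less. It had 188.9 and 189.7 CPM in shYY1 libraries, against 144.7 and 149.2 CPM in shNC libraries, so the groups did not overlap. The log2 fold change was 0.37 ± 0.0739 (95% interval 0.20 to 0.53; edgeR adjusted p = 0.017), which is 1.29-fold higher. The table gives HACD3 at chr15:65530418-65578349 (plus strand, ENSG00000074696). Without shYY1 replicate 1 the log2 fold change was 0.37 with an adjusted p of 0.16, and without shYY1 replicate 2 it was 0.36 with an adjusted p of 0.193, so the call was lost while the value hardly moved. A fit that leaves out a library has 1 library in that group, takes the spread between replicates from the other group's pair alone and assumes that the lone library varies like that pair. The chi-square per gene was 18.9 between the shYY1 libraries and 41.6 between the shNC libraries. The calls of SCD5, ELOVL4 and LPIN1 held in each of the 14 alternative settings tried, those that left out a library among them.

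**Figure D2:**
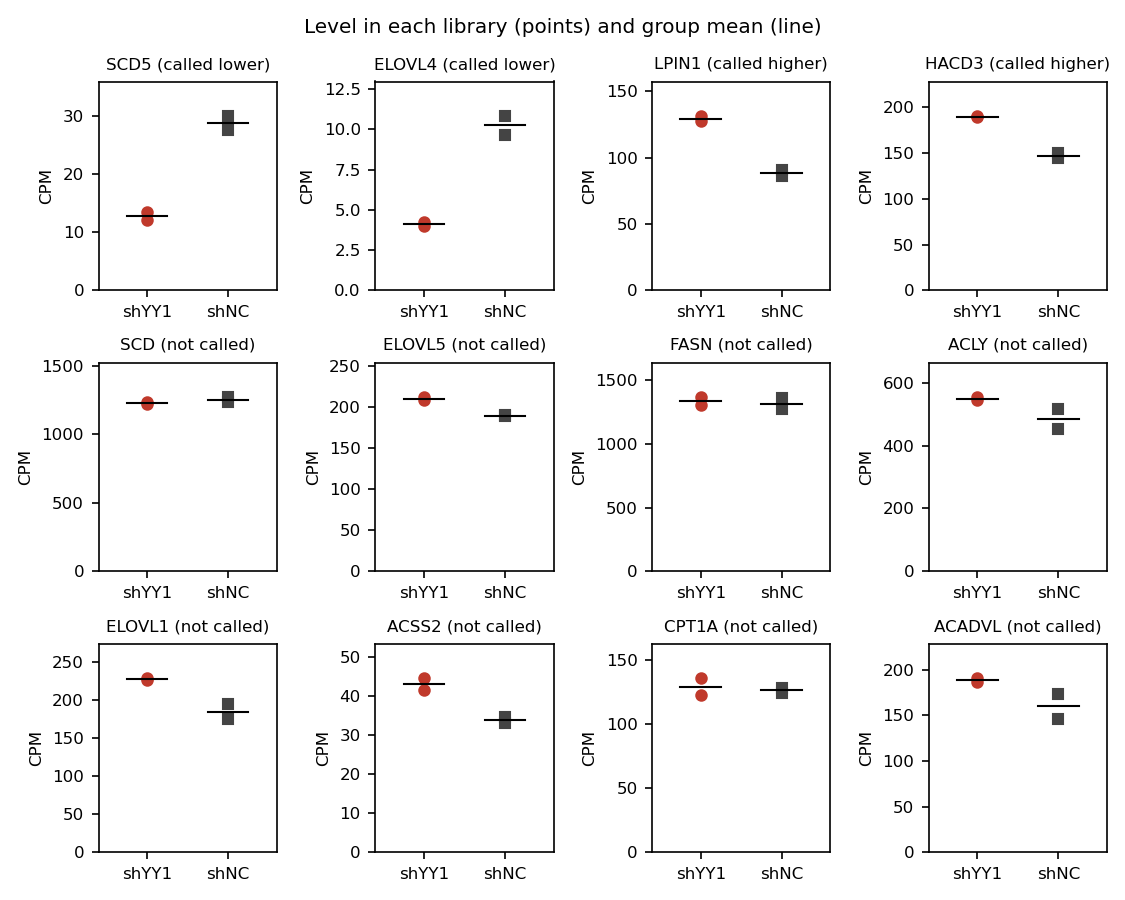
Level in CPM (linear axes from 0) of 12 fatty acid genes in each shYY1 library (circles, left) and each shNC library (squares, right), with the mean of each group as a line. In ratio the means differ most for SCD5 and ELOVL4. The groups also lie apart for LPIN1 and HACD3 and, without a call, for ACSS2, ELOVL1, ELOVL5, ACLY and ACADVL. SCD, FASN and CPT1A have nearly the same mean in both groups.

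The promoter regions of the 4 called genes, and of HACD2 for contrast, are shown because YY1 is a promoter-binding factor whose known core motif contains CCATNTT. The windows run from 250 bases before to 50 bases after the RefSeq start (GRCh38.p14), on the strand of the gene, and capitals mark CCATNTT or its reverse complement AANATGG. They are SCD5 (chr4:82798747-82799046, minus strand), ELOVL4 (chr6:79947504-79947803, minus strand), LPIN1 (chr2:11677294-11677593, plus strand), HACD3 (chr15:65530213-65530512, plus strand) and HACD2 (chr3:123585004-123585303, minus strand).
SCD5: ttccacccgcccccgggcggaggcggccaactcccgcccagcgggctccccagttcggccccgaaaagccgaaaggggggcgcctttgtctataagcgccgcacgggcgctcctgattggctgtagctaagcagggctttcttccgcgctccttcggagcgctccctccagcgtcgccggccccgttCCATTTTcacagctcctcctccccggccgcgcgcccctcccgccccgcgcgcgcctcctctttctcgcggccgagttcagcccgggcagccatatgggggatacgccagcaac
ELOVL4: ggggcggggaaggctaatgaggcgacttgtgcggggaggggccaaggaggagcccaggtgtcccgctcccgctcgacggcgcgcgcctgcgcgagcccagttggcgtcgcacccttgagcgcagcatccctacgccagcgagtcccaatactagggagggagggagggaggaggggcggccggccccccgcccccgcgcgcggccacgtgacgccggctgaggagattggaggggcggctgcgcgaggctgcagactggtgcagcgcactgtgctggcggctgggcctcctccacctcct
LPIN1: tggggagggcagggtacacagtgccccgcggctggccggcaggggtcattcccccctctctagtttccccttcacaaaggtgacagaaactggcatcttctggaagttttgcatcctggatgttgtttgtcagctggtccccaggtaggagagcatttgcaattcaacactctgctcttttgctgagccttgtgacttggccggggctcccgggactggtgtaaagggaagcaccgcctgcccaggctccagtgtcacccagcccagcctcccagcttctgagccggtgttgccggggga
HACD3: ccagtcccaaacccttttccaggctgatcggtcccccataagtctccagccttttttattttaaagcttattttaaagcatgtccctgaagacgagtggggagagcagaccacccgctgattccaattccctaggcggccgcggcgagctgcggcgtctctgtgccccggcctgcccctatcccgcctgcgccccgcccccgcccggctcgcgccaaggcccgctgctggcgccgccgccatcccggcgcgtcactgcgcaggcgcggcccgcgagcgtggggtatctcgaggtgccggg
HACD2: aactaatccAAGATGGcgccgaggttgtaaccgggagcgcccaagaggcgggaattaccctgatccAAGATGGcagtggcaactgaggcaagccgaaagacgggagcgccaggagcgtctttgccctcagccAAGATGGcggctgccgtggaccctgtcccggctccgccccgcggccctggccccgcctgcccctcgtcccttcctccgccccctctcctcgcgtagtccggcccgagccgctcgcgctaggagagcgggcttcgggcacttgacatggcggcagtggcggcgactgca
The SCD5 window held 1 match, with its first base at position -63 from the start. The windows of ELOVL4, LPIN1 and HACD3 held none, in any of their listed starts. The HACD2 window held 3 matches, at -241, -184 and -118. The window of the other listed HACD2 start (chr3:123584568-123584867), not shown, held 0. HACD2 had a log2 fold change of 0.01 (95% interval -0.17 to 0.18). Of the 37 genes, 32 had an entry, and 6 of these (18.8%) held the motif in a window: SCD5, HACD2, HADHA, HADHB, ACACB and ACADVL. The windows of HADHA and HADHB overlap on opposite strands. The HADHA match at -134 and the HADHB match at -179 are the same site, counted for both genes. Of all 35116 windows of this length in the table, 15.6% held it, and of all tested genes with an entry 19.6% did. A match is a stretch of letters and not a measured binding site, and no binding was measured here. DGAT1, DGAT2, FASN, HSD17B12 and OXSM were not matched.

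The 3' UTRs were read because hairpins can act on other transcripts through short matches there. The words TTCAGAA and TCAGAAA came out of an earlier search of these same data for words commoner in transcripts that fell, so their frequency among genes called lower is a description and supports nothing. In the GENCODE 29 (GRCh38) transcript with the longest coding sequence, either word was present in 65.2% of 808 searched genes called lower, in 17.0% of 860 called higher and in 27.5% of 11169 not called. Of the 34 tested fatty acid genes searched, 11 held a word (32.4%), beside 29.2% of all 12837 genes searched. These 11 were both genes that fell, SCD5 and ELOVL4, and 9 that were not called. Neither gene that rose held a word, in any of the 5 coding transcripts of LPIN1 or the 8 of HACD3 in the GENCODE 29 basic set. In the transcript with the longest coding sequence the 3' UTR had only 96 bases in LPIN1 and 120 bases in HACD3. The longest 3' UTR among these transcripts had 2618 bases in LPIN1 and 1973 bases in HACD3. Over all coding transcripts of the basic set 1 more uncalled gene held a word, ACADM, in 2 of its 4 (log2 fold change 0.07). Sites of 30 bases are shown for the 2 genes that fell and for 4 uncalled genes with the same letters, which are in capitals.
SCD5: agatagatattTTCAGAAAagatgtaggat
ELOVL4: gtacaaactatTTCAGAAtattttgtaagc
ACACA: tgttcagcaccTTCAGAAAagggcataaag
ELOVL6: ttcaagtcagcTTCAGAAAtgttttaaaag
ELOVL7: tattgactgtaTTCAGAAgatactatattt
ACSL3: gttatttgtaaTTCAGAAAccttgcttgtg
The SCD5 site starts at base 1617 of a 3' UTR of 1788 bases, and 1 of 2 coding transcripts of SCD5 in the basic set holds it. The ELOVL4 site starts at base 1526 of 1796, in the only coding transcript of ELOVL4 in that set. The 9 uncalled genes with a word (ACACA, FADS1, ELOVL6, ELOVL7, HACD2, ACSL3, DGAT2, CPT1A and HADHB) had log2 fold changes from -0.23 to 0.26. The median log2 fold change was -0.03 in the 11 genes with a word and 0.10 in the searched genes without one. Genes with a word also had longer 3' UTRs, with a median of 2574 bases against 673 bases in genes without one, over all genes searched. The hairpin sequence is not given in the sources used here, and with the groups as they are, loss of YY1 and any other action of the hairpin cannot be told apart.

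In cytosolic synthesis none of the 5 genes was called by edgeR. At an unadjusted p under 0.05 there was 1, ACSS2, which DESeq2 called and limma-trend did not. FASN had 1364.3 and 1300.3 CPM in shYY1 libraries, against 1269.2 and 1359.7 CPM in shNC libraries. Its groups overlapped, and the 95% interval of its log2 fold change (-0.19 to 0.23 around 0.02) leaves room for only a small shift either way. ACACA, the main carboxylase here, had 117.7 and 117.4 CPM in shYY1 libraries, against 119.9 and 117.5 CPM in shNC libraries (95% interval -0.18 to 0.15). Its isozyme ACACB, which feeds malonyl-CoA to the mitochondrial surface, was near the bottom of the set with 2.22 and 1.52 CPM in shYY1 libraries, against 1.37 and 2.12 CPM in shNC libraries. The interval of ACACB, -0.69 to 0.89, is too wide to show a change of moderate size.

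The acetyl-CoA suppliers both had higher values in both shYY1 libraries without being called. ACLY had 553.1 and 544.2 CPM in shYY1 libraries, against 453.0 and 515.9 CPM in shNC libraries (log2 fold change 0.18 ± 0.0906, edgeR adjusted p = 0.263). Its shNC libraries differed from each other more than the nearer one did from the shYY1 libraries. The log2 fold change of ACLY was 0.09 without shNC replicate 1 and 0.28 without shNC replicate 2. It was 0.17 without shYY1 replicate 1 and 0.19 without shYY1 replicate 2, in fits with 1 library in a group. ACSS2 had 44.6 and 41.5 CPM in shYY1 libraries, against 34.7 and 33.1 CPM in shNC libraries (0.34 ± 0.0968, edgeR adjusted p = 0.0583; DESeq2 adjusted p = 0.0189).

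In desaturation SCD5 was the gene that moved, while SCD, the main stearoyl-CoA desaturase of most tissues, was not called. SCD had 1221.2 and 1232.8 CPM in shYY1 libraries, against 1270.5 and 1233.2 CPM in shNC libraries. The libraries nearest to each other across the groups were almost equal, and the 95% interval of the log2 fold change was -0.22 to 0.17, which does not overlap that of SCD5. Per length, SCD was far the more abundant isoform, with a mean of 192.9 FPKM in shYY1 cells and 204.3 FPKM in shNC cells, while SCD5 had a mean of 2.48 FPKM in shYY1 cells and 5.80 FPKM in shNC cells. SCD5 made up 1.21% and 1.33% of their summed FPKM in shYY1 libraries, against 2.62% and 2.91% in shNC libraries. The exact permutation test of that share gave p = 0.333 (2-sided), the smallest that 2 against 2 libraries allow. The sum itself was 196.9 and 193.8 FPKM in shYY1 libraries, against 218.5 and 201.7 FPKM in shNC libraries.

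The FADS desaturases, which act on polyunsaturated fatty acids and lie side by side on chromosome 11, were not called. FADS1 had 113.6 and 118.8 CPM in shYY1 libraries, against 109.5 and 117.3 CPM in shNC libraries (95% interval of the log2 fold change -0.14 to 0.22). FADS2 had 42.0 and 40.7 CPM in shYY1 libraries, against 34.3 and 41.8 CPM in shNC libraries (-0.14 to 0.38). Both pairs of groups overlapped. FADS3, whose substrates include sphingoid bases, had 12.5 and 11.3 CPM in shYY1 libraries, against 13.2 and 14.7 CPM in shNC libraries, with a log2 fold change of -0.23 ± 0.139 (edgeR adjusted p = 0.349). FADS1 and FADS2 share 490 exonic bases on opposite strands in GENCODE 29, and the strand setting of the counting is not given, so reads there cannot be assigned.

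Elongation held 10 tested genes, of which HACD3 rose, ELOVL4 fell and 8 were not called. Among the elongases, ELOVL1, which extends saturated very long chains, came nearest to a call. It had 225.7 and 228.1 CPM in shYY1 libraries, against 174.3 and 194.4 CPM in shNC libraries, with no overlap (log2 fold change 0.30 ± 0.0828, edgeR adjusted p = 0.0551). It was called in 8 of the 14 alternatives, with adjusted p-values of 0.00652 by DESeq2 and 0.0433 by limma-trend. Its log2 fold change was 0.22 without shNC replicate 1 and 0.39 without shNC replicate 2. It was 0.31 without shYY1 replicate 1 and 0.29 without shYY1 replicate 2. Each of these fits has 1 library in a group and takes the spread from the other group's pair. ELOVL5, the elongase of polyunsaturated fatty acids, had 209.1 and 212.4 CPM in shYY1 libraries, against 189.3 and 190.9 CPM in shNC libraries (0.15 ± 0.0738, edgeR adjusted p = 0.256). ELOVL6, the elongase that lengthens palmitate, had 4.40 and 4.67 CPM in shYY1 libraries, against 5.93 and 4.70 CPM in shNC libraries (edgeR adjusted p = 0.57). ELOVL7, another elongase of long saturated chains, was nearly level, with 18.9 and 19.0 CPM in shYY1 libraries, against 19.3 CPM in both shNC libraries.

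The remaining elongases were at or near the floor. ELOVL3 had 0 counts in all 4 libraries, and the 3 counts that a count of 0 allows correspond to between 0.0416 and 0.0439 CPM per library. ELOVL2 had 0 counts in both shYY1 libraries and in shNC replicate 2, and 11 counts in shNC replicate 1. Neither was tested. These floors cover counting error only, because PCR copies of a molecule cannot be recognised without molecular identifiers.

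Per length, the summed level of the 7 ELOVL genes was 126.3 and 124.4 FPKM in shYY1 libraries, against 112.0 and 113.4 FPKM in shNC libraries. ELOVL1 made up 59.6% and 59.5% of this sum in shYY1 libraries, against 54.5% and 57.0% in shNC libraries. ELOVL4 made up 0.934% and 0.860% in shYY1 libraries, against 2.51% and 2.63% in shNC libraries. Both shares separated the groups, and the exact permutation test for ELOVL4 gave p = 0.333, the smallest possible here. The family sum was thus carried by ELOVL1 and ELOVL5, with ELOVL4 a small part of it in both groups.

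Of the elongation partners, the ketoreductase HSD17B12 had 112.6 and 112.4 CPM in shYY1 libraries, against 101.7 and 100.7 CPM in shNC libraries (log2 fold change 0.15 ± 0.0749, edgeR adjusted p = 0.249). The enoyl reductase TECR had 233.9 and 239.0 CPM in shYY1 libraries, against 218.1 and 246.6 CPM in shNC libraries, with overlapping groups. Among the dehydratases, HACD2 overlapped between groups at 121.7 and 117.0 CPM in shYY1 libraries, against 121.1 and 116.7 CPM in shNC libraries. HACD1, best known from muscle, was low, at 5.61 and 6.06 CPM in shYY1 libraries, against 6.80 and 6.52 CPM in shNC libraries (edgeR adjusted p = 0.581). HACD3 made up 51.8% and 52.7% of the summed FPKM of the 3 dehydratases in shYY1 libraries, against 45.0% and 46.7% in shNC libraries.

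Mitochondrial fatty acid synthesis was represented by MCAT, the malonyl transferase, and OXSM, the condensing enzyme. Neither was called by edgeR, DESeq2 or limma-trend, and 0 of the 2 had an unadjusted p under 0.05. MCAT had 34.3 and 30.5 CPM in shYY1 libraries, against 25.8 and 34.0 CPM in shNC libraries, with overlap. OXSM had 13.0 and 12.0 CPM in shYY1 libraries, against 9.84 and 11.4 CPM in shNC libraries (log2 fold change 0.24 ± 0.148, edgeR adjusted p = 0.364). Of the exonic bases of OXSM, 21.6% are shared with NGLY1 on the opposite strand, so its value is uncertain.

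Among the acyl-CoA synthetases, 0 of 3 were called by edgeR, DESeq2 or limma-trend, and 1, ACSL3, had an unadjusted p under 0.05. ACSL3, the synthetase of the endoplasmic reticulum and lipid droplets, had 202.3 and 177.1 CPM in shYY1 libraries, against 231.6 and 209.9 CPM in shNC libraries (log2 fold change -0.22 ± 0.0929, edgeR adjusted p = 0.184). ACSL1, a synthetase of liver, fat and heart, had 43.1 and 42.8 CPM in shYY1 libraries, against 43.1 and 38.2 CPM in shNC libraries. ACSL5, which is found on mitochondria, had 5.71 and 6.90 CPM in shYY1 libraries, against 4.85 and 4.35 CPM in shNC libraries (0.45 ± 0.200, edgeR adjusted p = 0.201). ACSL3 and ACSL5 did not overlap between groups and ACSL1 did.

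In glycerolipid synthesis LPIN1 rose and the other 3 genes were not called. LPIN2, its relative, had 29.8 and 31.9 CPM in shYY1 libraries, against 32.1 and 27.0 CPM in shNC libraries, with overlap (95% interval -0.20 to 0.33, which does not overlap the interval of LPIN1). LPIN1 made up 71.6% and 69.7% of their summed FPKM in shYY1 libraries, against 61.8% and 64.7% in shNC libraries. DGAT1 and DGAT2 catalyse the last step of triacylglycerol synthesis. DGAT1 had 12.3 and 11.3 CPM in shYY1 libraries, against 12.9 and 11.8 CPM in shNC libraries. DGAT2 had 1.04 and 0.747 CPM in shYY1 libraries, against 0.585 and 0.901 CPM in shNC libraries, and its interval of -0.77 to 1.30 is too wide to place it.

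In oxidation none of the 6 genes was called by edgeR, DESeq2 or limma-trend on log2 CPM. At an unadjusted p under 0.05 there was 1, ACADVL. CPT1A, the carnitine palmitoyltransferase that sets the rate of entry into mitochondria, had 135.6 and 122.8 CPM in shYY1 libraries, against 128.4 and 124.4 CPM in shNC libraries (95% interval -0.15 to 0.22). CPT2, its partner on the inner membrane, had 32.0 and 34.5 CPM in shYY1 libraries, against 34.9 and 40.0 CPM in shNC libraries (log2 fold change -0.17 ± 0.109, edgeR adjusted p = 0.382). The groups overlapped for CPT1A and lay just apart for CPT2.

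ACADVL, the dehydrogenase of very long acyl chains, had 190.7 and 186.6 CPM in shYY1 libraries, against 146.5 and 173.5 CPM in shNC libraries (log2 fold change 0.24 ± 0.0937, edgeR adjusted p = 0.154). ACADM, which takes medium chains, had 54.5 and 52.1 CPM in shYY1 libraries, against 52.2 and 49.1 CPM in shNC libraries. The subunits of the mitochondrial trifunctional protein overlapped between groups, with HADHA at 177.0 and 181.7 CPM in shYY1 libraries, against 155.6 and 185.8 CPM in shNC libraries, and HADHB at 68.4 and 70.7 CPM in shYY1 libraries, against 69.1 and 76.3 CPM in shNC libraries. In ACADVL and HADHA the shNC libraries stood apart from each other, with replicate 2 the nearer to the shYY1 libraries. Without shNC replicate 2 the log2 fold change was 0.37 for ACADVL and 0.21 for HADHA. Without shNC replicate 1 it was 0.12 for ACADVL and -0.05 for HADHA. Each of these fits has 1 shNC library and takes the spread from the shYY1 pair alone.

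In 19 of the 35 tested genes (54.3%) both shYY1 libraries lay on 1 side of both shNC libraries, 10 above and 9 below, beside 54.9% of all tested genes. The share was thus that of the table as a whole. It was 8 of 10 in elongation, 3 of 5 in desaturation, 2 of 5 in synthesis and 2 of 6 in oxidation. In activation it was 2 of 3, in mitochondrial synthesis 1 of 2 and in glycerolipid synthesis 1 of 4.

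**Figure D3:**
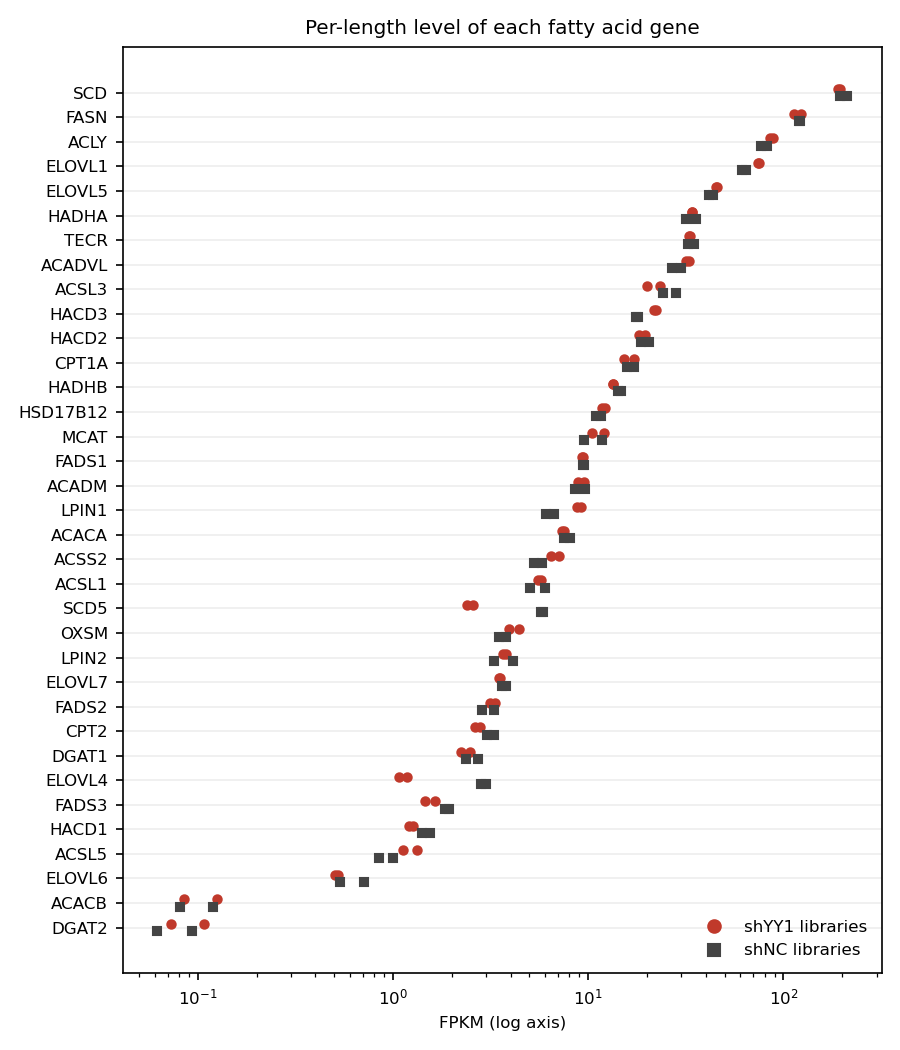
FPKM (log axis) of the 35 tested fatty acid genes in each shYY1 library (circles, drawn slightly above) and each shNC library (squares), ordered by mean level. Levels run from SCD and FASN above 100 FPKM to ACACB and DGAT2 near 0.1 FPKM, and among the 35 the widest separations between groups are those of SCD5 and ELOVL4.

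Per length, the synthesis and desaturation arms held the most abundant members. SCD, with 155 genes of the table above it in mean FPKM, was followed by FASN with 271, ACLY with 436 and ELOVL1 with 549 above them. The mean of FASN was 117.9 FPKM in shYY1 cells and 120.6 FPKM in shNC cells, and that of ACLY was 86.9 FPKM in shYY1 cells and 79.4 FPKM in shNC cells. Both genes that fell were in the lower range of the set, with ELOVL4 at 1.12 FPKM in shYY1 cells and 2.90 FPKM in shNC cells.

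The rest of lipid metabolism was read from 9 further lists of 177 genes, of which 164 were in the table and 148 were tested. Of these 148, 11 rose (7.43%, beside 5.05% of all tested genes), 8 fell (5.41%, beside 4.90%) and 129 were not called, with a median log2 fold change of 0.05. Calls were made in 8 of the 9 lists. The exception was mitochondrial fatty acid synthesis and lipoylation, where edgeR, DESeq2 and limma-trend each called 0 of 9 and 1 had an unadjusted p under 0.05.

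Over all tested genes 5.05% rose and 4.90% fell. The lists are small, and none was tested against these shares. Among 21 genes of SREBP and LXR control, 3 rose (14.3%) and 1 fell (4.76%). INSIG1, a sterol-responsive retention factor for SREBP, had 107.8 and 107.5 CPM in shYY1 libraries, against 46.8 and 48.6 CPM in shNC libraries (log2 fold change 1.17 ± 0.0810, edgeR adjusted p = 0.000213). TRIB3, a stress-induced pseudokinase, changed by 1.01 (edgeR adjusted p = 0.000505), the sterol receptor NR1H2 by 0.63 (adjusted p = 0.00578), and the phospholipid remodelling enzyme LPCAT3 by -0.41 (adjusted p = 0.0328). Of 10 PPAR factors and coactivators, 2 rose (20.0%) and 0 fell. Those that rose were PPARG at 0.57 (edgeR adjusted p = 0.0084) and ESRRA at 0.54 (edgeR adjusted p = 0.0147). Of 22 genes of citrate, acetyl-CoA and NADPH supply, 3 rose (13.6%) and 1 fell (4.55%). The malic enzyme ME1 (0.57) and the pyruvate dehydrogenase subunit PDHB (0.42) were among those that rose, and the mitochondrial malic enzyme ME2 (-0.49) fell.

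Among 20 other acyl-CoA synthetases and uptake or binding genes, 3 fell and 1 rose. ACSL4, the synthetase that prefers arachidonate, had 23.8 and 22.8 CPM in shYY1 libraries, against 56.1 and 51.9 CPM in shNC libraries (log2 fold change -1.22 ± 0.0984, edgeR adjusted p = 0.000451). In the summed FPKM of ACSL1, ACSL3, ACSL4 and ACSL5 its share was 9.10% and 9.53% in shYY1 libraries, against 17.6% and 18.0% in shNC libraries. The acyl-CoA binding domain protein ACBD3 (-0.65) and the thioesterase ACOT2 (-0.64) fell, and the fatty acid transporter SLC27A4 (0.56) rose. In other mitochondrial oxidation 1 of 19 rose (5.26%), the enoyl-CoA isomerase ECI1 (0.40). In other glycerolipid synthesis 2 of 17 fell (11.8%). They were the acyltransferase AGPAT5 (-0.86, edgeR adjusted p = 0.000852) and the phosphotransferase CEPT1 (-0.57). In lipid droplets and lipolysis 1 of 12 rose (8.33%), AUP1 (0.32).

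A word TTCAGAA or TCAGAAA was present in the 3' UTR of 6 of the 8 list genes that fell and of 1 of the 11 that rose, ME1. Over the 142 list genes searched the share was 29.6%. Among all searched genes it was 65.2% of those called lower and 17.0% of those called higher. The words came out of these same data, so these counts are a description and support nothing. Of the 19 called list genes, 7 lost the call when a library was left out, in fits that again have 1 library in a group and take the spread from the other group's pair. Without either shYY1 library, the log2 fold changes stayed near the reported ones: -0.39 and -0.43 for LPCAT3, -0.52 and -0.46 for ME2, 0.38 and 0.45 for PDHB, -0.70 and -0.58 for ACOT2, 0.38 and 0.43 for ECI1, -0.67 and -0.47 for CEPT1, and 0.34 and 0.31 for AUP1 (without replicate 1, then without replicate 2). Without shYY1 replicate 1 these were LPCAT3 (adjusted p = 0.213), ME2 (0.0728), PDHB (0.185), ACOT2 (0.0515), ECI1 (0.214) and AUP1 (0.217). Without shYY1 replicate 2 they were LPCAT3 (0.164), ME2 (0.11), PDHB (0.0787), ACOT2 (0.106), ECI1 (0.129), CEPT1 (0.118) and AUP1 (0.314). LPCAT3 was also lost without shNC replicate 2 (-0.35, adjusted p = 0.0513), and ECI1 without shNC replicate 1 (0.29, adjusted p = 0.0765).

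**Figure D4:**
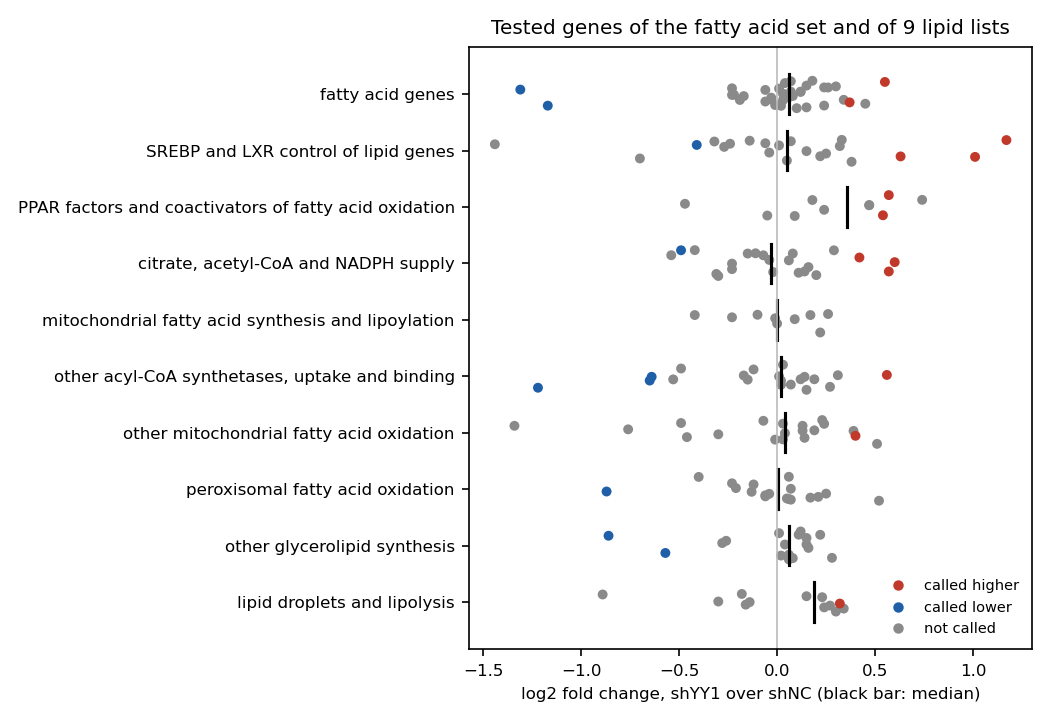
Log2 fold change of shYY1 over shNC for each tested gene (points) of the 37-gene fatty acid set and of 9 further lipid lists, with the median of each list as a black bar. All medians lie between -0.03 and 0.36, and the called genes lie on both sides of 0.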

How the data were processed

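RNA-seq libraries of 2 shYY1 and 2 shNC samples were compared, grouped by their titles. The authors deposited raw counts for every gene and library, used unchanged, and FPKM values, so named per the file headers, a unit scaled to gene length and library total. For this table, aligner, counter, strand setting and build were not given in the sources used here. The submitters' processing notes name Bowtie 0.12.2 and the mouse builds mm8 and mm9, which cannot describe human Ensembl gene IDs. All 37 genes lie on the same chromosome in GENCODE 29, and 11 have the same start and end there. Reads shared by overlapping or near-identical genes are uncertain. Such overlaps touch members other than OXSM, FADS1 and FADS2 as well. On the opposite strand, DNAJB1 covers 3.57% of the exonic bases of TECR, HSF1 3.36% of DGAT1 and ZDHHC6 3.4% of ACSL5. On the same strand, RABGGTB covers 3.28% of ACADM.

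Genes passing edgeR's filterByExpr (minimum count 10, minimum total 15) were tested, 18035 in all, with edgeR 4.0.16 (R 4.3.3): TMM factors, robust quasi-likelihood, no block, and Benjamini-Hochberg adjustment over all tested genes at 0.05. The fit had a common biological coefficient of variation of 20.2% and 2 residual degrees of freedom. Standard errors are the fold change divided by the root of the F statistic, and 95% intervals use the t distribution with the fit's 8.82 degrees of freedom. Replicates of both groups differed beyond counting noise. The edgeR script was tested on simulated data. The 14 alternatives changed the scaling (RLE factors, library totals), the filter (none, or 5 CPM in 2 libraries), the test (no robust estimation, DESeq2 1.42.0, limma-trend of limma 3.58.1 on log2 CPM with a prior count of 2), the unit (the authors' FPKM as log2 with 1 or 0.1 added, for genes at 1 FPKM in 2 libraries) or the samples (each library left out, replicate number as a block).

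Words were read in the 3' UTR, of at least 50 bases, of the GENCODE 29 basic transcript with the longest coding sequence. Promoter windows are from RefSeq (GRCh38.p14). Named are YY1, all 37 genes, and up to 4 called genes in each direction of each further list. Some called list genes are not reported here by name. The members, lists, words and tests were chosen with earlier results of these data known.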

Additional observations from a re-analysis of the deposited data

How the results depend on the processing

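SCD5, ELOVL4 and LPIN1 were called in each of the 14 alternatives and HACD3 in 12. The count of fatty acid genes called lower was 2 in each alternative, and the count called higher, 2 as reported, was 4 with DESeq2, 4 with the replicate block and 1 to 6 with a library left out. Of the 9 further lists, 11 genes were called higher as reported, 20 with DESeq2, 20 with the replicate block and 8 to 26 with a library left out. The 8 called lower were 13 at 5 CPM or more in 2 libraries and 5 to 11 with a library left out. Each such fit has 1 library in a group, takes the spread from the other group's pair and assumes that the lone library varies like it. Over all genes, 910 called higher as reported became 1470 with DESeq2, 1475 with the replicate block, 2097 without shNC replicate 2, 425 without shYY1 replicate 1 and 429 without shYY1 replicate 2. The 883 called lower became 1427 with the replicate block and 595 to 1207 with a library left out. Higher genes were 50.8% of calls as reported, 40.3% by library totals alone, 63.5% without shNC replicate 2 and 37.2% without shYY1 replicate 1. Library totals alone put the median of all genes at -0.06. The labels do not say that replicate numbers mark pairs, and same-numbered libraries did not deviate together (correlation of deviations 0.0039), so the block has no basis in the design.

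Signs turned in 14 uncalled genes, with reported log2 fold changes from -0.06 to 0.26. Library totals alone gave FASN -0.03, FADS1 -0.01, HACD2 -0.05, TECR -0.02 and CPT1A -0.02. At 5 CPM or more in 2 libraries FASN was -0.0097, HACD2 -0.02 and TECR -0.0037. On log2(FPKM + 1) FASN was -0.03, FADS1 -0.01, HACD2 -0.05, TECR -0.02 and CPT1A -0.02, and on log2(FPKM + 0.1) FASN was -0.03, FADS1 -0.02, HACD2 -0.05, TECR -0.02 and CPT1A -0.02. With a library left out the ranges were -0.03 to 0.08 for FASN, -0.02 to 0.0022 for ACACA, -0.19 to 0.45 for ACACB, -0.01 to 0.09 for FADS1, -0.02 to 0.27 for FADS2, -0.02 to 0.04 for HACD2, -0.06 to 0.12 for TECR, -0.07 to 0.34 for MCAT, -0.12 to 0.005 for DGAT1, -0.01 to 0.61 for DGAT2, -0.05 to 0.19 for LPIN2, -0.04 to 0.10 for CPT1A, -0.05 to 0.21 for HADHA and -0.13 to 0.01 for HADHB. The cause was not tested. ACACB and DGAT2 had low counts and wide 95% intervals (-0.69 to 0.89 and -0.77 to 1.30). Neither interval could place a change of moderate size. ELOVL2 and ELOVL3 had too few counts to be tested. The part of depth in these intervals was not tested.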
